A study of Homo sapiens with 12 samples.

Results

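The KEAP1-NFE2L2 pathway is described here through KEAP1, its target NFE2L2 and genes that answer to electrophiles, chosen by name and matched to the table by NCBI gene ID. Of 10 genes named, 6 are among the 5759 genes of the authors' deposited table: KEAP1, NFE2L2, TXNRD1, GCLM, GCLC and NQO1. The other 4, HMOX1, SRXN1, SQSTM1 and MAFG, were not analysed here. Every gene of the table had an FDR (false discovery rate) under 0.05 in at least 1 comparison and an absolute log2 fold change of 1 or more in at least 1. The presence of a member thus already means that it passed somewhere, and a count of changed members is a description.

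RNA sequencing was done on MOLT4, an established human T lymphoblast line labelled wild type, in 4 groups of 3 samples. One group received the vehicle DMSO for 6 h, 2 groups received compound 955 at 0.1 µM for 1 h or 6 h, and 1 group received SNS-032 at 1 µM for 6 h. SNS-032 is an inhibitor of cyclin-dependent kinases including CDK9, a kinase of RNA polymerase II transcription. Compound 955 joins it to piperlongumine, a plant electrophile, and the study compared 955 with SNS-032 as its target-binding part. The compounds differ in dose, and the 1 h group has no vehicle group of its own time, so time in culture cannot be told apart from treatment there. Nothing in the labels says that the samples of a group came from separate cultures, so p-values measure the spread between these samples, which may be technical. Depth per sample is unknown, and values are given per comparison, not per sample. Of 22 T lymphoblast markers, 7 are in the table, among them CD4, CD7, DNTT and CD3G, at average levels from 3.74 to 7.60 log2 CPM (counts scaled to library size) in the authors' deposited table. Of the 5 myeloid, 3 erythroid and 3 epithelial markers searched for, the table lists none. Since the table lists changed genes, a missing marker says nothing about its level.

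KEAP1 is the substrate adaptor of a CUL3 ubiquitin ligase that marks the transcription factor NFE2L2 (NRF2) for degradation. Electrophiles modify cysteines of KEAP1, NFE2L2 then escapes degradation, pairs with small MAF proteins and activates genes with antioxidant response elements. Those genes make glutathione, reduce thioredoxin and detoxify quinones. KEAP1 also has a part in the compound itself, because piperlongumine conjugates such as 955 are reported to recruit KEAP1 as the ligase for degradation of CDK9. The regulation of NFE2L2 by KEAP1 acts on protein, which RNA sequencing does not measure.

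The members lie on different chromosomes (RefSeq, GRCh38.p14). KEAP1 (gene ID 9817) spans chr19:10486125-10503356 and NFE2L2 (4780) chr2:177230303-177264727, both on the minus strand. TXNRD1 (7296), the cytosolic thioredoxin reductase, spans chr12:104215779-104350307 on the plus strand. GCLC (2729) and GCLM (2730), the catalytic and modifier subunits of glutamate-cysteine ligase, which makes the first intermediate of glutathione, span chr6:53497341-53545101 and chr1:93885199-93909430, both on the minus strand. NQO1 (1728), a quinone reductase, spans chr16:69709401-69726560 on the minus strand. TXNRD1, GCLC and NQO1 each overlap an annotated antisense gene, TXNRD1 also overlaps EID3, and NFE2L2 overlaps MIR3128. The use of strand in counting is not given in the sources used here, so reads of such pairs cannot be told apart.

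Promoters are shown because NFE2L2 activates genes with antioxidant response elements. The 6 members were lower at 6 h, as were many genes of the table, and a link to these elements was not tested. The stretches printed are the 2 in which the core letters of the antioxidant response element were found outside annotated exons (but for 1 base of the GCLM match), and for matches within exons only the 9 letters are given. The motif TGACNNNGC was searched on both strands in the 250 bases before each RefSeq start, and 3 of the 6 members had a match in at least 1 window (4 of 9 windows). Of all 35116 such windows, 10.9% hold the motif, and of the 6438 windows of genes in the table, 11.6%. Both sequences run 5′ to 3′ on the gene's strand, with the match in capitals. The TXNRD1 stretch is chr12:104215529-104215778 (plus strand) and holds TGACTTCGC from position -99, counted back from the base before the start. The GCLM stretch is chr1:93909456-93909680 (minus strand) and ends with GCTTAGTCA, a match on the opposite strand from position -34.
TXNRD1: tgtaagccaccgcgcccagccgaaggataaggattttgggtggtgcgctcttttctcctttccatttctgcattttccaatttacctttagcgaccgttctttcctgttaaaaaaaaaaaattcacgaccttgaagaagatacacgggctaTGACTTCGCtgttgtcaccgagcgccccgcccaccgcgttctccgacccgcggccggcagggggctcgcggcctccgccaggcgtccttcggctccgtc
GCLM: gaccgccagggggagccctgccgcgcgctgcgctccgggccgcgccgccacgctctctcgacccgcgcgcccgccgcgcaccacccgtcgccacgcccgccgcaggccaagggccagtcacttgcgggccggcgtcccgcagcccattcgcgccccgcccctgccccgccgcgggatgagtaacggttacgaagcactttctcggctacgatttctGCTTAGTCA
The window before the inner start of KEAP1 holds 2 matches, TGACACGGC from position -54 and GCTTAGTCA from position -31, and the latter has the same 9 letters as the match of GCLM. They lie at chr19:10502817-10502825 and chr19:10502794-10502802 (minus strand), within an exon of another KEAP1 transcript in the GENCODE annotation. A second TXNRD1 window, which lies within exons in the same annotation, holds GCTTTGTCA at chr12:104286930-104286938 from position -102. The windows of NFE2L2, GCLC and NQO1 do not hold these letters. The NQO1 window and the NFE2L2 window at chr2:177264728-177264977 lie wholly within exons in the same annotation. Sequence further than 250 bases before a start was not searched, so elements there would be missed. A match is a run of letters and was not tested as a binding site.

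KEAP1 RNA fell at 6 h with both compounds and had the lowest fold change of the members. In the authors' deposited table its log2 fold change against DMSO was -3.53 with 955 (FDR 2.33e-10) and -3.67 with SNS-032 (FDR 1.16e-10). The implied standard errors, derived from the fold change and its F statistic, were 0.24 and 0.25. These values put KEAP1 RNA at 8.68% of its DMSO level with 955 (95% interval 6.10% to 12.4%) and at 7.87% with SNS-032 (5.51% to 11.3%). Only 85 genes of the table (1.48%) had a lower log2 fold change with 955 at 6 h, and 127 (2.21%) with SNS-032. After 1 h of 955, KEAP1 stood at 54.3% of DMSO (39.6% to 74.6%), and the authors' deposited table gives it -0.88 at an FDR of 0.0209. That value passes the FDR and misses the bound of an absolute log2 fold change of 1 that is required here for a call. KEAP1 was the single member under the FDR threshold at 1 h. Each value is relative to the whole library, so it describes the share of KEAP1 in the RNA sequenced. It does not give transcripts per cell, the total amount of RNA or the number of cells.

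From highest to lowest, KEAP1 levels ran from DMSO over 955 at 1 h and then 6 h to SNS-032. From 1 h to 6 h of 955 its log2 level fell by 2.65 (standard error 0.23, adjusted p 2.42e-09, t distribution over 5759 genes). The last neighbours in this order did not differ beyond their error: 955 minus SNS-032 at 6 h was 0.14, with a 95% interval of -0.37 to 0.65 and an adjusted p of 0.859.

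NFE2L2, the transcription factor itself, was lower at 6 h with both compounds. Its log2 fold changes in the authors' deposited table were -1.25 with 955 (FDR 0.00186) and -1.19 with SNS-032 (FDR 0.00269), each with an implied standard error of 0.27. The RNA stood at 42.0% of DMSO with 955 (28.2% to 62.6%) and at 44.0% with SNS-032 (29.5% to 65.5%). At 1 h of 955 it was at 69.4% (46.9% to 103%), and the authors' deposited table gives it -0.53 at an FDR of 0.465. Scaled on mitochondrially encoded mRNAs, as described below, NFE2L2 at 1 h was at -1.20 with an adjusted p of 0.00115, which is a call. That p-value is adjusted over the genes of the table and leaves out the error of the scaling shift, so it is not comparable with the FDR. The step from 1 h to 6 h was -0.72 (95% interval -1.29 to -0.15, adjusted p 0.0207), under the fold bound, and the adjusted p was 0.0949 if the sharing of the DMSO group is not used in the error. The compounds differed by -0.06 (-0.64 to 0.51, adjusted p 0.948). The degrees of freedom behind NFE2L2 were 14.5, against 20.7 for KEAP1 and 23.3 for the 4 target genes.

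The log2 fold change of KEAP1 minus that of NFE2L2 was -2.28 with 955 at 6 h and -2.48 with SNS-032, so KEAP1 had the lower share of its DMSO level in both. These are differences between the fold changes of 2 genes in 1 comparison, so the choice of scaling does not enter them. They were not tested.

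**Figure D1:**
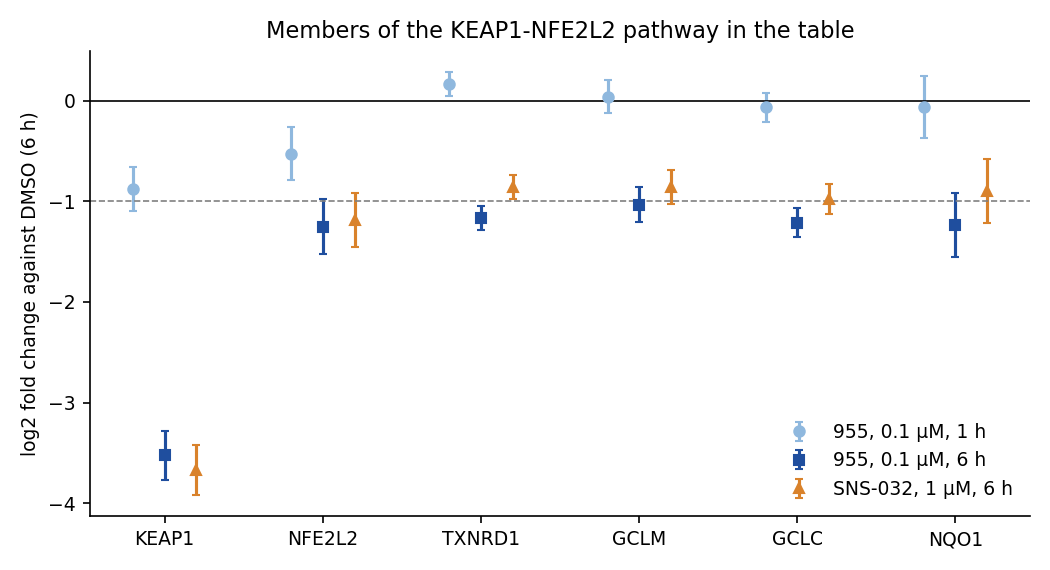
Log2 fold change against DMSO (vertical axis) of the 6 members in the table for the 3 treated groups. Points are the authors' values, bars are 1 implied standard error each way, and the dashed line marks -1; KEAP1 lies near -3.5 at 6 h and the other members between -0.86 and -1.25.

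The 4 enzyme genes that NFE2L2 activates were lower at 6 h, and at 1 h none passed the FDR under the authors' scaling. After 1 h of 955 their log2 fold changes in the authors' deposited table lay between -0.07 and 0.17, or 95.5% to 112% of DMSO, and their FDR was 0.727 for TXNRD1 and 1 for GCLM, GCLC and NQO1. After 6 h of 955 the same genes stood at 42.5% to 48.9% of DMSO. None of the 4 was called higher in any of the 3 comparisons, under the authors' scaling or the mitochondrial scaling described below. The latter puts all 4 lower at 1 h, under the fold bound: TXNRD1 at -0.51 (adjusted p 0.000943), GCLM at -0.63 (0.00232), GCLC at -0.74 (0.000142) and NQO1 at -0.73 (0.0412). These p-values too leave out the error of the shift.

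For TXNRD1 the log2 fold change in the authors' deposited table was -1.17 with 955 at 6 h (FDR 4.07e-08) and -0.86 with SNS-032 (FDR 3.7e-06). The implied standard error was 0.12 in both, the smallest among the members. For GCLC the values in the authors' deposited table were -1.21 (FDR 4.4e-07) and -0.98 (FDR 8.49e-06), with an implied standard error of 0.15. GCLM, the modifier subunit, had -1.03 (FDR 2.95e-05) and -0.86 (FDR 0.000257) in the authors' deposited table, with 0.17. Both subunits of glutamate-cysteine ligase thus stood between 43.2% and 55.2% of DMSO at 6 h.

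NQO1 had -1.23 with 955 (FDR 0.00373) and -0.90 with SNS-032 (FDR 0.0336) in the authors' deposited table. Its implied standard error of 0.32 was the largest among the members. Its average level, 2.43 log2 CPM in the authors' deposited table, was also the lowest of the members, where the other 5 ran from 4.56 to 7.32. These levels are not scaled by transcript length and rank no gene against another.

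With 955 at 6 h, 6 of the 6 members in the table were called lower, meaning an FDR below 0.05 together with a fall of 1 or more on the log2 scale. This compares with 50.1% of the table called lower and 85.3% called in either direction. With SNS-032, KEAP1 and NFE2L2 passed (2 of 6, against 52.5% lower and 90.2% in either direction), while TXNRD1, GCLM, GCLC and NQO1 passed the FDR and fell short of the fold bound. At 1 h, 0 of 6 passed, against 7.71% of the table lower and 0.729% higher, or 8.44% together. With the FDR alone the 1 h count was 1 of 6, against 16.6%. Without the fold bound 6 of 6 passed at 6 h with each compound, against 93.5% of the table with 955 and 95.7% with SNS-032. The steps between FDR values place the table among 28395 genes tested by the authors, of which 4.33% passed the FDR at 1 h, at least 27.8% with 955 at 6 h and 29.0% with SNS-032. The median log2 fold change of the 6 was -1.22 with 955 and -0.94 with SNS-032, beside -1.03 and -1.07 over the genes of the table. The 4 enzyme genes reached an absolute log2 fold change of 1 with 955 at 6 h and in no other comparison. They are therefore in the table through that comparison, and their passing the bound there was fixed by how the table was made. A listed gene that misses the bound with SNS-032 had to pass it elsewhere, so these counts do not show a difference between the compounds. The difference between the compounds was tested directly.

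**Figure D2:**
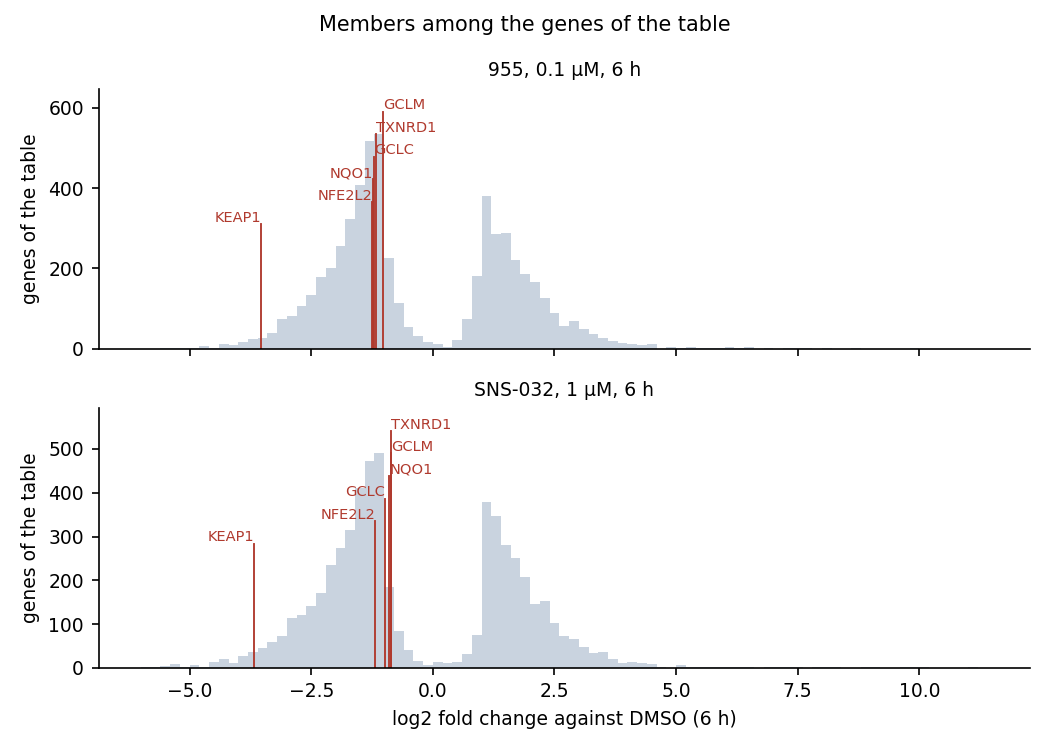
Number of genes of the table (vertical axis) by log2 fold change against DMSO (horizontal axis, bins of 0.2) for 955 and SNS-032 at 6 h; red lines mark the members. KEAP1 lies in the lower tail, with 85 and 127 genes below it, and the other members lie near the peak of lowered genes.

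In that contrast of the groups as dosed (955 at 0.1 µM minus SNS-032 at 1 µM, both at 6 h), no member passed an adjusted p of 0.05, against 2.73% of the table in either direction and 0.972% lower. With the bound of 1, 0.851% of the table was higher with 955 and 0.260% lower. The 4 enzyme genes had lower values with 955, a direction that their entry into the table through 955 at 6 h fixes. TXNRD1 differed by -0.31 (95% interval -0.56 to -0.06, p 0.0183, adjusted p 0.215) and NQO1 by -0.34 (-0.99 to 0.32, adjusted p 0.696). GCLC differed by -0.23 (-0.54 to 0.07, adjusted p 0.499) and GCLM by -0.18 (-0.53 to 0.18, adjusted p 0.706). The intervals leave room for enzyme RNA that is lower with 955 by up to 0.53 to 0.99 on the log2 scale, and they do not show that the compounds act alike. Of all genes of the table, 50.3% were lower with 955.

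This common sign depends on the scaling, and the size of every value against DMSO does too. The 13 mRNAs encoded by mitochondrial DNA, which RNA polymerase II does not make, had median log2 fold changes of 0.67, 2.07 and 2.35 for 955 at 1 h, 955 at 6 h and SNS-032 in the authors' deposited table. Scaled so that these medians are 0, the differences became -0.04 for TXNRD1, -0.06 for NQO1, 0.04 for GCLC and 0.10 for GCLM, so that 2 of the 4 were negative. NFE2L2 turned from -0.06 to 0.21 and KEAP1 moved from 0.14 to 0.42. Against DMSO, the 6 members stayed lower at 6 h: KEAP1 was at -5.60 with 955 and -6.01 with SNS-032, and the other 5 lay between -3.32 and -3.10 with 955 and between -3.53 and -3.20 with SNS-032. Under this scaling the table held 142 genes called higher and 3825 lower with 955 at 6 h, in place of 2026 and 2885. For SNS-032 it held 116 and 4151, in place of 2175 and 3021, and for 955 at 1 h 16 and 1766, in place of 42 and 444.

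**Figure D3:**
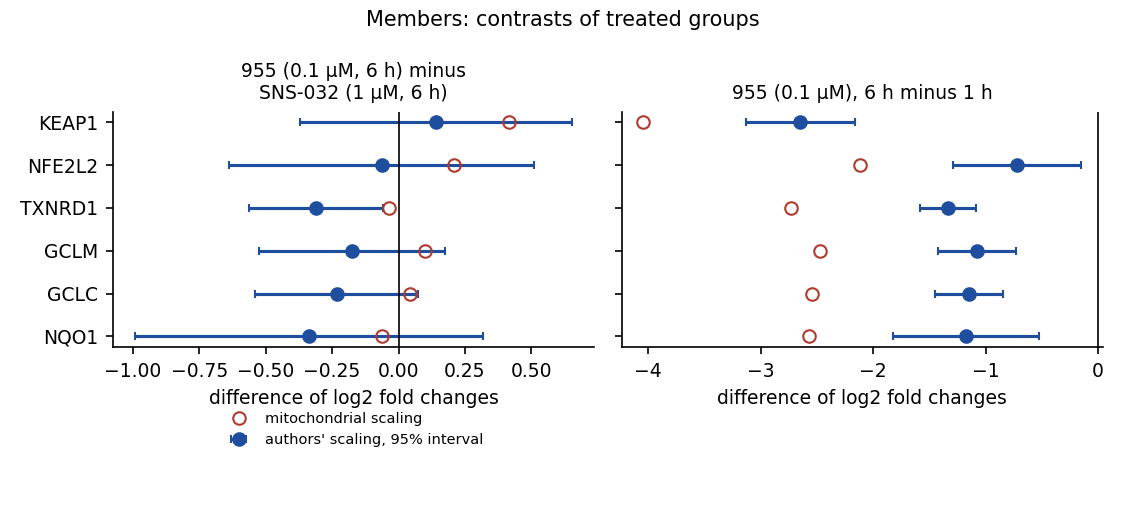
Difference of log2 fold changes (horizontal axis) for each member, left between 955 and SNS-032 at 6 h and right between 6 h and 1 h of 955. Filled points with 95% intervals use the authors' scaling and open points the mitochondrial scaling; on the left the enzyme genes lie below 0 as filled points and near 0 as open points.

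Between 1 h and 6 h of 955, 5 of the 6 members were past the threshold and lower at 6 h (adjusted p under 0.05 and a difference of at least 1), against 35.6% of the table lower, 27.0% higher and 62.7% together. By the adjusted p alone 6 of 6 were lower, against 46.7%. Beside KEAP1 these were the 4 enzyme genes, with TXNRD1 at -1.33 (standard error 0.12, adjusted p 1.41e-09) and GCLC at -1.14 (0.15, 2.69e-07). GCLM differed by -1.07 (0.17, 4.62e-06) and NQO1 by -1.17 (0.31, 0.00162). These 4 are in the table through 955 at 6 h alone, which fixes the direction of their difference from 1 h. Their p-values and their part in the count are therefore a description. NFE2L2 was the member that fell short of the bound. All 6 were more negative under the mitochondrial scaling, from -2.12 for NFE2L2 to -4.04 for KEAP1.

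The wider pathway was taken from 8 role lists with 146 symbols, of which 59 are in the table. With 955 at 6 h, 34 of the 59 were called lower and 15 higher from the authors' deposited table, against 50.1% lower and 35.2% higher over the table. With SNS-032 these counts were 28 and 20, against 52.5% and 37.8%. The medians over the 59 genes were -1.12 and -1.01, beside -1.03 and -1.07 for all genes of the table. At 1 h, 2 were lower (PALB2 and CHAC1, the latter named after its value was seen) and 0 higher, against 7.71% and 0.729%. Under the mitochondrial scaling 0 of the 59 were higher at 6 h with either compound and 47 and 49 were lower past the threshold, so each rise named below turns into a fall or no call there. A listed gene under the bound with 1 compound had to pass it in another comparison, so the counts for the 2 compounds show no difference between them.

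**Figure D4:**
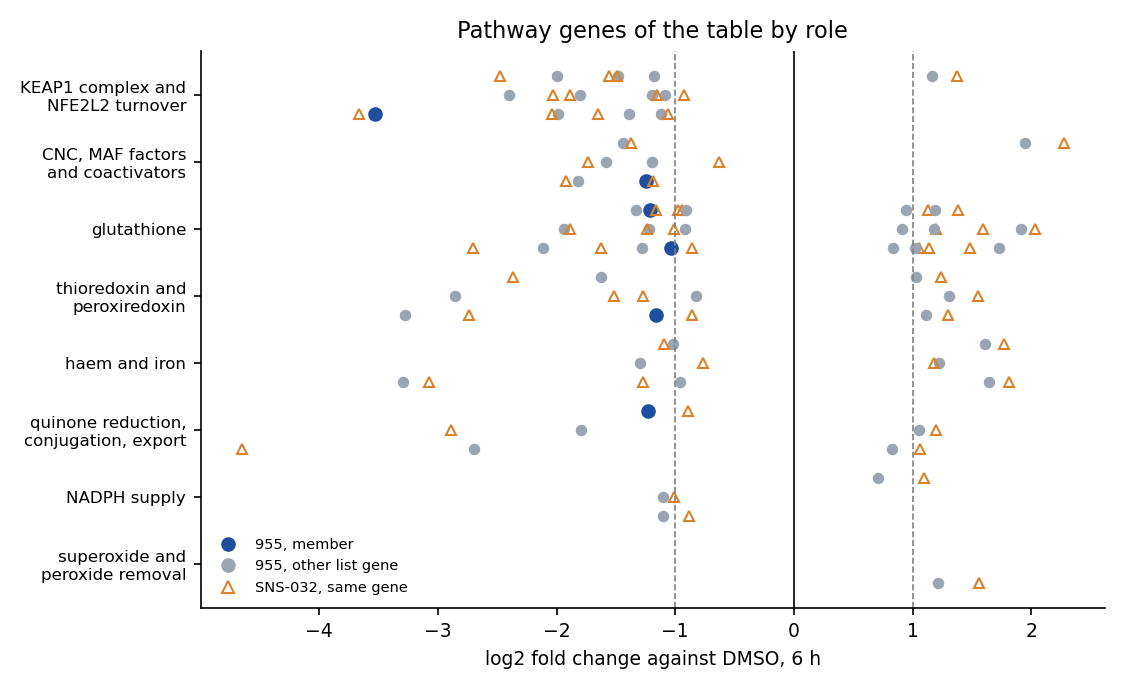
Log2 fold change at 6 h against DMSO (horizontal axis) of the 59 pathway genes in the table, by role (vertical axis; the offset of points within a role has no meaning). Circles are 955, with members in blue, open triangles are SNS-032 for the same gene and dashed lines mark -1 and 1; 34 circles pass the threshold on the lower side and 15 on the higher.

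The listed regulators of NFE2L2 turnover in the table were mostly lower. Of 12 genes, KEAP1 included, 11 fell and 1 rose with 955 at 6 h, against 50.1% and 35.2% of the table. With SNS-032, 10 fell and 1 rose, against 52.5% and 37.8%. CUL3, the scaffold that carries KEAP1, had log2 fold changes of -1.99 with 955 (FDR 4.64e-10) and -2.04 with SNS-032 (FDR 2.52e-10) in the authors' deposited table. COMMD1, a regulator of cullin ligases, had -2.40 and -2.03, per the authors' deposited table. PGAM5, a mitochondrial phosphatase that binds KEAP1, had -2.47 with SNS-032 and passed with 955 too (FDR 0.00117), per the authors' deposited table. PALB2, a DNA repair protein with a KEAP1-binding motif, had -1.81 and -1.89 in the authors' deposited table, and at 1 h it was already at -1.12 (FDR 0.00754). The gene that rose was NEDD8, the modifier that activates cullins, named here after its value was seen. Its values in the authors' deposited table were 1.16 with 955 and 1.37 with SNS-032, and -0.91 with 955 under the mitochondrial scaling. COMMD1 overlaps CCT4 in the annotation, so its reads are uncertain.

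Of 6 listed CNC and MAF factors and coactivators, 5 fell and 1 rose with 955, against 50.1% and 35.2% of the table. With SNS-032, 4 fell and 1 rose, against 52.5% and 37.8%. NFE2L1, the relative of NFE2L2 that responds to proteasome inhibition, had -1.59 with 955 (FDR 2.67e-09) and -1.73 with SNS-032 (FDR 5.87e-10) in the authors' deposited table. CREBBP, a histone acetyltransferase and coactivator of NFE2L2, had -1.82 and -1.92, and the Mediator subunit MED16 had -1.44 and -1.38 in the authors' deposited table. MAFF, a small MAF partner, rose by 1.95 with 955 (FDR 0.00541) and 2.27 with SNS-032 (FDR 0.00146) in the authors' deposited table, and stood at -0.13 with 955 under the mitochondrial scaling. MAFF overlaps TMEM184B in the annotation.

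The glutathione list split, with 6 of 17 genes lower and 5 higher with 955, against 50.1% and 35.2% of the table. With SNS-032, 5 were lower and 8 higher, against 52.5% and 37.8%. On the lower side with 955, beside GCLC and GCLM, GLRX (glutaredoxin) had -1.94 with 955 (FDR 2.12e-08) and -1.89 with SNS-032, per the authors' deposited table. CHAC2, an enzyme that degrades glutathione, had -2.12 (FDR 4.57e-05) and -1.63 in the authors' deposited table. On the higher side, the glutathione transferase GSTM2 had 1.91 (FDR 1.58e-10) and 2.03 in the authors' deposited table, and -0.16 with 955 under the mitochondrial scaling. SLC7A11, the cystine transporter and a known target of NFE2L2, had 1.73 (FDR 0.00471) and 1.48 (FDR 0.0124) in the authors' deposited table, and -0.34 with 955 under the mitochondrial scaling. Its sign was thus opposite to that of the 4 enzyme targets under the authors' scaling. GSTM2 shares sequence with its GSTM paralogs, CHAC2 overlaps ASB3 and SLC7A11 overlaps an antisense gene, so their counts are uncertain.

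In the thioredoxin list, 4 of 8 genes were lower and 3 higher with each compound at 6 h. Over the table, 50.1% were lower and 35.2% higher with 955, and 52.5% and 37.8% with SNS-032. MSRB1, a methionine sulfoxide reductase, had -3.27 with 955 (FDR 2.46e-10) and -2.74 with SNS-032, per the authors' deposited table, and TXNIP, the thioredoxin-binding protein, had -1.62 (FDR 0.0118) and -2.37 (FDR 0.00145). NXN (nucleoredoxin), a thioredoxin relative, had -2.86 with 955 (FDR 1.93e-09) and -1.51 with SNS-032 (FDR 1.12e-05) in the authors' deposited table. NXN was the list gene past the threshold between the compounds (1 of 59, against 1.11% of the table). The difference was -1.34 (standard error 0.24, adjusted p 0.0037), and the adjusted p was 0.21 if the sharing of the DMSO group is not used in the error. PRDX2, a peroxiredoxin with 4 annotated pseudogene copies, had 1.30 (FDR 6.19e-06) and 1.55 in the authors' deposited table, and -0.77 with 955 under the mitochondrial scaling.

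In the haem and iron list, 3 of 7 genes were lower and 3 higher with each compound. Over the table, 50.1% were lower and 35.2% higher with 955, and 52.5% and 37.8% with SNS-032. HMOX2, the haem oxygenase that is not induced by stress, had -3.29 with 955 (FDR 0.00762) and -3.08 with SNS-032 (FDR 0.0105) in the authors' deposited table. Its implied standard error was 0.80 and it overlaps NMRAL1. BLVRA, biliverdin reductase, had -1.30 (FDR 0.000125) with 955 in the authors' deposited table. FTL, the ferritin light chain and a known target of NFE2L2, had 1.61 (FDR 2.96e-10) and 1.77 (FDR 5.39e-11) in the authors' deposited table, and the haem transporter ABCB6 had 1.64 and 1.81. Both turned under the mitochondrial scaling, to -0.46 for FTL and -0.43 for ABCB6 with 955. FTL has 20 annotated pseudogene copies, so its reads may be shared.

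Of the 5 listed genes of quinone reduction, conjugation and export, NQO1 included, 3 were lower and 1 higher with 955. With SNS-032, 2 were lower and 2 higher. The shares of the table were 50.1% lower and 35.2% higher with 955, and 52.5% and 37.8% with SNS-032. The exporter ABCG2 had -1.79 (FDR 0.0431) with 955 and -2.89 with SNS-032, per the authors' deposited table, and ABCC5 had 1.06 and 1.19, or -1.02 with 955 under the mitochondrial scaling. In the NADPH list, 2 of 3 genes were lower with 955 and 0 with SNS-032, where 1 was higher, beside the same shares of the table. PGD, an enzyme of the pentose phosphate pathway, had -1.10 (FDR 0.0393) with 955 and -1.01 (FDR 0.0546) with SNS-032, per the authors' deposited table. ME2, a malic enzyme, had -1.10 (FDR 3.16e-07) and -0.88 in the authors' deposited table. The single listed gene of superoxide and peroxide removal, CCS, which loads copper into superoxide dismutase, had 1.22 and 1.56 in the authors' deposited table and -0.85 with 955 under the mitochondrial scaling.

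Likeness of pattern was measured as the Euclidean distance over the 3 log2 fold changes, among 5319 genes with an average of at least 1 log2 CPM. All 3 share the DMSO samples. The genes nearest to KEAP1 were LOC101927045 (distance 0.24), the ubiquitin ligase RNF19B (0.26), the augmin subunit HAUS8 (0.27), the cytochrome c haem lyase HCCS (0.27) and the lipid transfer protein CPTP (0.27). CPTP, for example, had -1.08, -3.34 and -3.66 in the authors' deposited table for 955 at 1 h, 955 at 6 h and SNS-032. Nearest to NFE2L2 were the transcription factor E2F3 (0.05), ERLIN1 (0.06), the ETS factor FLI1 (0.08), the respiratory complex I subunit NDUFV3 (0.08) and the Rab regulator TBC1D10A (0.09). E2F3 had -0.55, -1.22 and -1.22 in the authors' deposited table, in that order.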

How the data were processed

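RNA was sequenced from 12 MOLT4 samples in 4 groups of 3, assigned from their titles. Per the submitters' processing notes, the build was hg38 and DESeq2 was among the tools the authors used, with no role given. The aligner, counter, use of strand, annotation and filters are not given in the sources used here. Per the file headers, the authors deposited for each treated group against DMSO a log2 fold change, an average log2 CPM over all samples, an F statistic (a score), a p-value and an FDR. Base 2 was read from the values, since the smallest of the genes' largest absolute changes is 1.0006. Values per sample and depth were not analysed here.

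The implied standard error is the size of the log2 fold change divided by the root of F. Denominator degrees of freedom were solved from F and p (lowest 8.23, median 23.3). Contrasts of 2 treated groups are differences of 2 log2 fold changes. Their standard error is the root mean square of the 2 implied ones, with a t distribution and Benjamini-Hochberg adjustment over 5759 genes (Python 3.11.15, scipy 1.17.1). These steps were run on simulated data with a known dispersion and the same degrees of freedom for every gene. That run checks the arithmetic and does not test the error rates for the selected genes of the table. Of the deposited gene IDs, 5727 matched RefSeq names (GRCh38.p14). Members and gene lists were chosen with earlier results of these data known.

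Besides the members, genes were named by rule. From each of 8 role lists these were the 4 with the largest absolute change with 955 at 6 h among those past the threshold with an average of at least 1 log2 CPM. Added were the 5 genes nearest to KEAP1 and to NFE2L2 over the 3 log2 fold changes, and list genes past the threshold between the compounds. Genes named outside this rule are marked where they appear. Alternatives were scaling on 13 mitochondrially encoded mRNAs (adjusted over the genes of the table), other bounds, a level filter and other standard errors. The mitochondrial scaling took its shift as a constant, so its adjusted p-values leave out the error of the shift.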

Additional observations from a re-analysis of the deposited data

Results flagged for a closer look

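The log2 fold change of each member in the table differed between 6 h and 1 h of 955, by the test of the difference itself. The 1 h group has no vehicle group of its own time, so time in culture cannot be told apart from treatment. TXNRD1, GCLM, GCLC and NQO1 entered the table through 955 at 6 h alone, which fixes the direction of their difference. The log2 difference of 6 h minus 1 h was -2.65 for KEAP1, -0.72 for NFE2L2, -1.33 for TXNRD1, -1.07 for GCLM, -1.14 for GCLC and -1.17 for NQO1, with adjusted p from 1.41e-09 (TXNRD1) to 0.0207 (NFE2L2). For NFE2L2 the adjusted p was 0.0949 if the sharing of the DMSO group is not used in the error. In the table as a whole, 84.7% of genes differed between the times by the same adjusted p. NXN, a thioredoxin relative, differed between the compounds at 6 h by -1.34 (955 minus SNS-032), with an adjusted p of 0.0037, or 0.21 with that larger error.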

How the results depend on the processing

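Of 50 recomputed counts, 36 stayed within 1.5 times the reported value. These include member counts of 0 at 1 h under stricter settings, such as a bound of 2, which could only be 0 again. Under the mitochondrial scaling the members past the threshold became 2 in place of 0 at 1 h and 6 in place of 2 with SNS-032, and the genes of the table became 1782 in place of 486 at 1 h and 181 in place of 64 between the compounds. Without the fold bound, 1 member passed at 1 h and 6 with SNS-032, and the table gave 958 at 1 h and 157 between the compounds. With a bound of 2, 1 member (KEAP1) passed at 6 h with each compound, and the table gave 48 at 1 h, 1622 with 955 and 1853 with SNS-032. A larger standard error, which does not use the sharing of the DMSO group, left 8 genes between the compounds in place of 64, and NXN (-1.34) was not among them, and NFE2L2 between 1 h and 6 h had an adjusted p of 0.0949. The members that changed sign under the mitochondrial scaling were TXNRD1 (-0.51) and GCLM (-0.63) at 1 h, and NFE2L2 (0.21), GCLM (0.10) and GCLC (0.042) between the compounds. With 955 at 6 h every pathway gene of the lists above 0 turned below 0, among them ABCB6 (-0.43), ABCC5 (-1.02), CCS (-0.85), FTL (-0.46), GSTM2 (-0.16), MAFF (-0.13), PRDX2 (-0.77) and SLC7A11 (-0.34). The shift itself, applied to every gene, makes these changes. No paired analysis was possible because the table gives 1 value per comparison and no values per sample, and for the same reason no replicate was left out. Depth is unknown, so no detection limit is given.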

Other observations

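The largest fall among pathway genes at 1 h was in a gene outside the naming rule, chosen after its value was seen. CHAC1, an enzyme that degrades glutathione and a target of the stress factor ATF4, had a log2 fold change of -3.76 after 1 h of 955 (FDR 0.0096) in the authors' deposited table. In the authors' deposited table its 6 h values were -0.91 for 955 (FDR 0.472) and -1.23 for SNS-032 (FDR 0.278). The difference between the times was 2.84 (adjusted p 0.00246), at an average level of only 0.26 log2 CPM. MAFF, named above, went from -1.02 at 1 h (FDR 0.483) to 1.95 at 6 h with 955 in the authors' deposited table, a difference of 2.97 (adjusted p 3.03e-05).

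Several abundant antioxidant transcripts, chosen in the same way, were higher at 6 h in the authors' deposited table while the 4 enzyme members were lower. Their log2 fold changes with 955 and SNS-032 were 1.19 and 1.38 for GPX4 (lipid peroxide removal), 1.11 and 1.30 for PRDX5 and 1.03 and 1.24 for TXN (thioredoxin). GSR, glutathione reductase, was at -1.22 and -1.01 in the authors' deposited table. Under the mitochondrial scaling GPX4, PRDX5 and TXN were at -0.88, -0.96 and -1.04 with 955, and GSR at -3.29, so the sign of the first 3 changed.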
